A study of Sus scrofa with 6 samples.

Results

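S100 proteins and annexins were examined in porcine granulosa cells (GCs), the somatic cells that surround the oocyte, with and without overexpression of retinol binding protein 4 (*RBP4*). The members were chosen by name, with the measured increases of *S100A12* and *ANXA1* in these cells known, so the direction of the members is a description and was not tested. Of 10 genes named, 9 were found by symbol among the 17950 genes of the deposited table. They are 6 S100 genes (*S100A4*, *S100A6*, *S100A8*, *S100A10*, *S100A11* and *S100A12*) and 3 annexin genes (*ANXA1*, *ANXA2* and *ANXA5*). *S100A9* was not found by symbol and was not analysed here.

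The GCs came from the ovaries of Landrace pigs, pre-pubertal gilts according to the study's methods, and were cultured in serum before infection. The pLVX-*RBP4* group received a lentivirus made from the vector pLVX-IRES-ZsGreen with the porcine *RBP4* sequence inserted behind its cytomegalovirus promoter. The CTRL group received the virus of the same vector without the insert, so both groups carried the virus and its ZsGreen reporter. RNA was taken after 72 h of infection, with 3 libraries in each group. The methods call them biological triplicates and do not say which animals went into each. The authors' table holds 1 FPKM value per gene and group, made from the 3 libraries together. FPKM is the number of fragments scaled to transcript length and to the mapped fragments of a library, so levels of different genes can be set side by side. Single libraries cannot be seen in this table, which leaves their spread unknown, so the groups were not compared by a test. The study's supplement gives the depth of each library. Every pLVX-*RBP4* library had more mapped reads, and a larger mapped share, than any CTRL library. The part of this difference in the values was not tested. *RBP4* itself had 1.10 FPKM in CTRL cells and 92.3 FPKM in pLVX-*RBP4* cells, the direction the labels state. Reads of the introduced sequence are part of that value.

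S100 proteins are small calcium-binding proteins of the EF-hand type that work as dimers. In most of them calcium opens a surface that docks onto partner proteins, whereas S100A10 has lost calcium binding and docks without it, and some of them are also released from cells and act on receptors such as RAGE and TLR4. Annexins bind the acidic phospholipids of membranes in the presence of calcium and take part in vesicle traffic, membrane repair and the handling of dying cells. The families meet in defined pairs, since S100A10 binds the N-terminal tail of ANXA2, and S100A11 that of ANXA1.

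*ANXA2* and *ANXA5* were the most abundant of the 9 genes. *ANXA2* had 1332 FPKM in CTRL cells and 1568 FPKM in pLVX-*RBP4* cells and ranked 71 in level among the 17950 genes in both. *ANXA5* followed with 1019 and 1051 FPKM, at rank 102 in CTRL cells and 115 in pLVX-*RBP4* cells. The S100 genes covered a wide range, from *S100A6* at 460 and 526 FPKM to *S100A8* at 8.63 and 12.7 FPKM, ranks 7431 and 6005. From top to bottom the order was *ANXA2*, *ANXA5*, *S100A6*, *ANXA1*, *S100A4*, *S100A10*, *S100A12*, *S100A11* and *S100A8*, and it was the same in both groups. In the CTRL group the level of *ANXA2* was 154 times that of *S100A8*, and in pLVX-*RBP4* cells it was 123 times. The closest neighbours were *S100A6* and *ANXA1* in pLVX-*RBP4* cells, at 526 and 523 FPKM, with *ANXA1* at 0.995 times *S100A6*, against 0.836 times in CTRL cells. Whether neighbours in this order differ by more than their spread could not be tested with 1 value per group.

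**Figure D1:**
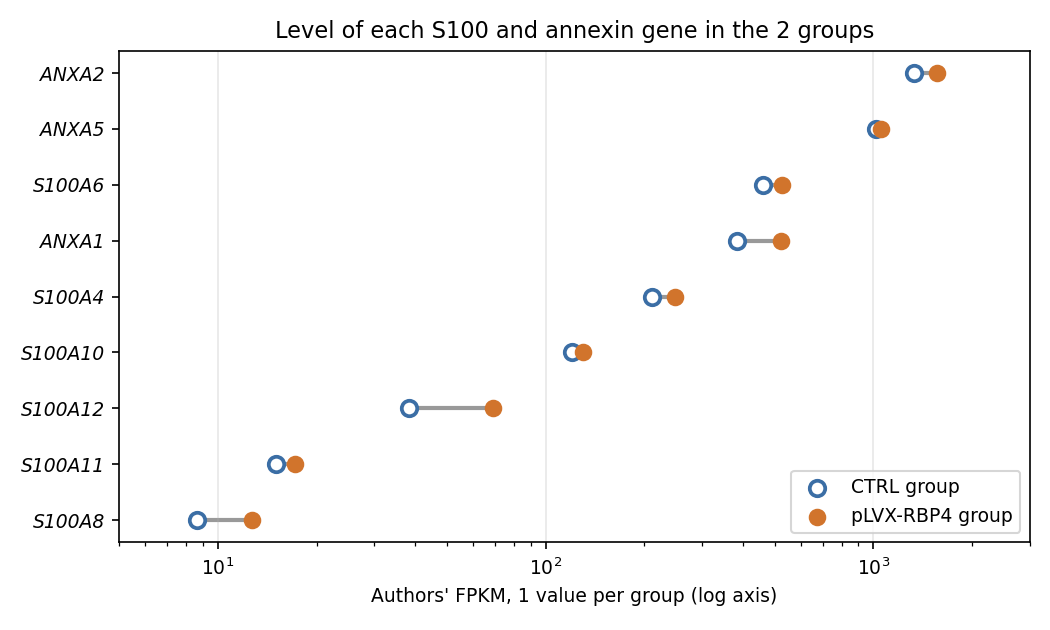
Level of each of the 9 genes in FPKM (x axis, log scale), with an open circle for the CTRL group, a filled circle for the pLVX-RBP4 group and a grey line between them. The circles stand for 1 value per group and carry no error. The filled circle lies to the right for each gene, farthest for *S100A12*, from 38.2 to 69.3 FPKM, and least far for *ANXA5*, from 1019 to 1051 FPKM.

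As deposited, all 9 genes were higher in pLVX-*RBP4* cells, but *S100A10* and *ANXA5* changed sign under other scalings given below. Genes that averaged 1 FPKM or more over the 2 groups numbered 12382, and 50.2% of them were higher. Abundant genes were higher more often, in 67.1% of the 1092 genes that averaged 100 FPKM or more. Of the members, 6 are in that range and all 6 were higher. The log2 fold change was computed from log2(FPKM + 1), which makes changes of low values look smaller. Its median was 0.23 over the 9 members, 0.0014 over the 12382 genes and 0.084 over the 1092 abundant genes. By a limit of 1.2-fold on this scale, 3 of the 9 members were higher, namely *S100A12*, *S100A8* and *ANXA1*, against 11.0% of the 12382 genes. No member was at least 1.2-fold lower, against 8.63% of all genes. Within the abundant range, 1 of 6 members (*ANXA1*) was at least 1.2-fold higher, against 15.8% of genes there. Since these same values entered the choice of the members, nothing is read from these counts.

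**Figure D2:**
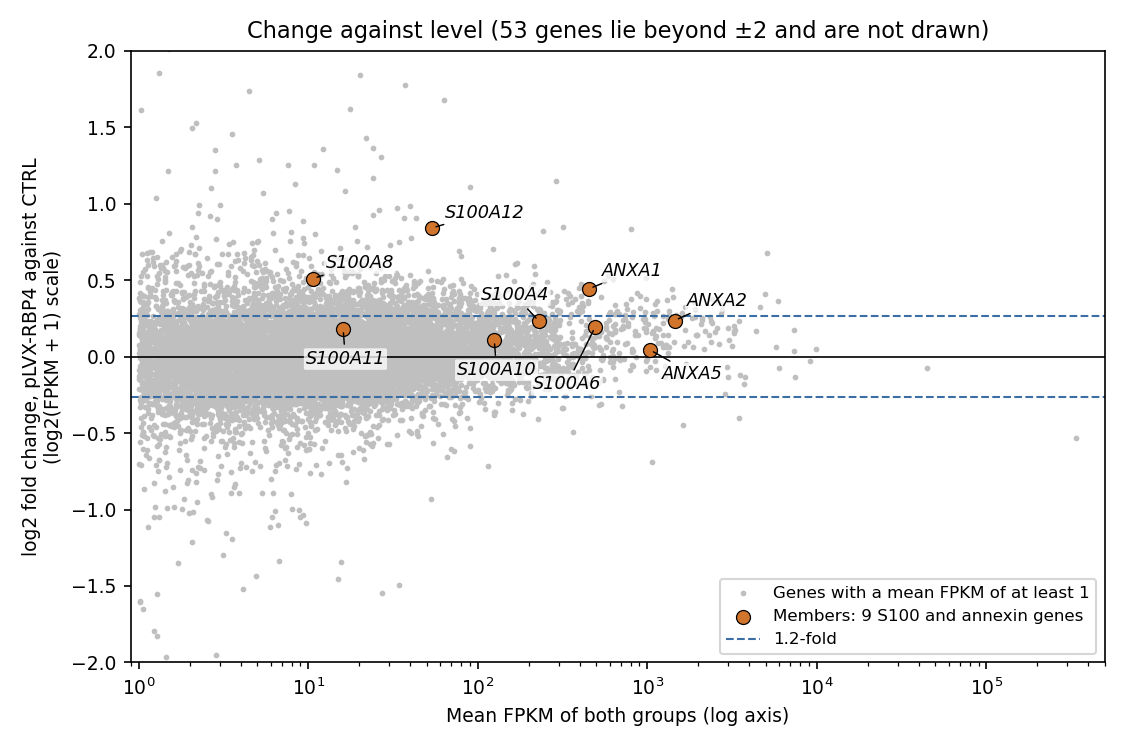
Log2 fold change on the log2(FPKM + 1) scale (y axis) against the mean FPKM of both groups (x axis, log scale) for the genes that averaged 1 FPKM or more (grey) and the 9 members (orange). Dashed lines mark 1.2-fold, and 53 genes beyond 2 on the y axis are not drawn. *S100A12*, *S100A8* and *ANXA1* lie above the upper line and the other 6 members between it and 0.

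*S100A12* and *S100A8* are calgranulins, S100 proteins best known from neutrophils and monocytes, where they are released during inflammation. *S100A12* (ENSSSCG00000006589), whose product binds RAGE, had 38.2 FPKM in CTRL cells and 69.3 FPKM in pLVX-*RBP4* cells. Its value was 1.81-fold higher, with a log2 fold change of 0.84, and 79 of the 12382 genes ranked above it. *S100A8* (ENSSSCG00000006590), which pairs with S100A9 to form calprotectin, had 8.63 and 12.7 FPKM, a ratio of 1.47 and a log2 fold change of 0.51. Both calgranulins were higher in pLVX-*RBP4* cells, and *S100A12* was the more abundant of them in both groups. The ratio of *S100A12* to *S100A8* was 4.43 in CTRL cells and 5.44 in pLVX-*RBP4* cells. In the RefSeq annotation of the pig genome (Sscrofa11.1) *S100A12* lies between *S100A8* and *S100A9*. That is another build than the authors' Sscrofa10.2, so positions are not given here.

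*S100A12* is the only one of the 9 genes among the study's RT-qPCR primer pairs. The pair is shown because the study used it for the transcript it calls *S100A12*. Whether the oligos match the gene measured here was not checked. Both oligos are written from 5′ to 3′.
S100A12 forward: acaccctcaagaacaccaaag
S100A12 reverse: ttgtcgtgggcagttatcag
The RT-qPCR values were not used here.

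Myeloid cells are the best known source of calgranulins, so their markers are given beside them. Of 14 myeloid markers, 11 were found by symbol, and their summed level was 63.0 FPKM in CTRL cells and 72.6 FPKM in pLVX-*RBP4* cells, a ratio of 1.15. All 6 that averaged 1 FPKM or more were higher as deposited, and 5 of the 6 after scaling to a common sum without the gene of the highest FPKM. Of the 12382 genes, 50.2% were higher as deposited and 30.1% after that scaling. As deposited, the median log2 fold change of the 6 markers was 0.20. *CD14*, the lipopolysaccharide co-receptor, was the most abundant, with 42.9 and 48.9 FPKM. *FCER1G*, a signalling chain of Fc receptors, was the only one past 1.2-fold on the log2(FPKM + 1) scale, with 0.734 and 1.71 FPKM. It was below 1 FPKM in CTRL cells and entered the 6 only through its pLVX-*RBP4* value (mean 1.22 FPKM), so its direction there was favoured by the filter. The macrophage and monocyte markers *TYROBP* (7.08 and 8.41 FPKM), *SPI1* (6.36 and 6.83 FPKM), *CD68* (4.02 and 4.59 FPKM) and *LYZ* (1.01 and 1.35 FPKM) were also expressed. The plain FPKM ratio of *LYZ* was 1.34, but its log2 fold change on the log2(FPKM + 1) scale was 0.23. The other 5 genes found were below 1 FPKM in both groups, among them the pan-leukocyte marker *PTPRC* with 0.229 and 0.166 FPKM, *CSF1R* with 0.414 and 0.428 FPKM, *CSF3R* with 0.0349 and 0.0675 FPKM and *ITGAM* with 0.153 and 0.155 FPKM. *MPO* was listed at 0 in CTRL cells and at 0.0189 FPKM in pLVX-*RBP4* cells. The part of myeloid cells in the calgranulin values was not tested. In bulk RNA, more cells of a type and more RNA per cell cannot be told apart.

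The other S100 members were more abundant, except for *S100A11*, and had smaller ratios between the groups than the calgranulins. On the FPKM scale, however, *S100A6* differed by 66.3 FPKM and *S100A4* by 37.0 FPKM, against 31.0 FPKM for *S100A12* and 4.09 FPKM for *S100A8*. *S100A6*, or calcyclin, which binds the ubiquitin ligase adaptor CACYBP, had 460 FPKM in CTRL cells and 526 FPKM in pLVX-*RBP4* cells (log2 fold change 0.19). *S100A4*, which binds non-muscle myosin heavy chain and is linked to cell motility, had 211 and 248 FPKM (0.23). *S100A10*, the partner of ANXA2, had 120 and 130 FPKM (0.11). These 3 genes lay between 7.98% and 17.6% above their CTRL values. *S100A11*, the partner of ANXA1, was much lower than its neighbour in the genome *S100A10*, with 15.0 and 17.2 FPKM (0.18). In the CTRL group the level of *S100A10* was 8.03 times that of *S100A11*, and in pLVX-*RBP4* cells 7.58 times. Summed over the 6 S100 members, the level was 853 FPKM in CTRL cells and 1003 FPKM in pLVX-*RBP4* cells, a ratio of 1.18.

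*ANXA1* (ENSSSCG00000005267) is induced by glucocorticoids, restrains inflammation through formyl peptide receptors and inhibits cytosolic phospholipase A2. It had 385 FPKM in CTRL cells and 523 FPKM in pLVX-*RBP4* cells, a ratio of 1.36 and a log2 fold change of 0.44. In log2 fold change, 375 of the 12382 genes ranked above it. *ANXA2* (ENSSSCG00000004578), which links membranes to actin and holds plasminogen activator at the cell surface together with S100A10, had a ratio of 1.18. Its difference of 237 FPKM was the largest of the 9 genes on the FPKM scale, followed by 139 FPKM for *ANXA1*, while *S100A12* differed by 31.0 FPKM. *ANXA5* (ENSSSCG00000009097), which binds the phosphatidylserine exposed on dying cells, had the smallest ratio of the 9 genes, 1.03. With the spread unknown, whether these 3 ratios differ from each other was not tested. The level of *ANXA5* was 2.65 times that of *ANXA1* in CTRL cells and 2.01 times in pLVX-*RBP4* cells, and the ratio of *ANXA1* to *ANXA2* was 0.289 and 0.334. The 3 annexins together had 2735 FPKM in CTRL cells and 3143 FPKM in pLVX-*RBP4* cells.

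The partners of the known pairs were expressed at unequal levels. For *ANXA2* and *S100A10* the annexin exceeded the S100 gene by 11.1 times in CTRL cells and 12.1 times in pLVX-*RBP4* cells. For *ANXA1* and *S100A11* it did so by 25.7 and 30.5 times. In both pairs the annexin had the larger ratio between the groups. These are levels of RNA, and protein was not measured for these genes in the values used here.

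Further S100 genes did not follow a single direction. Of 12 other S100 genes looked for, 5 were found by symbol and 4 averaged 1 FPKM or more, of which 2 were higher and 2 lower and none passed 1.2-fold. *S100A1*, a regulator of calcium cycling in muscle, had the highest level of any S100 gene found, 2136 FPKM in CTRL cells and 2559 FPKM in pLVX-*RBP4* cells (log2 fold change 0.26). In the RefSeq annotation *S100A1* overlaps *S100A13*, which was not found by symbol, so how the reads were divided between these genes is not known. *S100A14* had 30.4 and 33.8 FPKM (0.15). *S100A5* had 2.06 and 1.95 FPKM (-0.057) and *S100A3* 1.14 and 1.11 FPKM (-0.024). Both lie next to *S100A4* in the RefSeq annotation. *S100Z* had 0.250 FPKM in CTRL cells and was listed at 0 in pLVX-*RBP4* cells. With the members included, 8 of 10 S100 genes that averaged 1 FPKM or more were higher, with a median log2 fold change of 0.19. The share of genes that were higher was 50.2% of the 12382 and 67.1% of the 1092 abundant ones. All 6 S100 members are among the 8, and they were chosen with increases in these data known, so nothing is read from this count. Under the other scalings the S100 count lay between 7 and 9, and the share of all genes that were higher between 30.1% and 64.9%.

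Of 9 other annexins, 6 were found and 5 averaged 1 FPKM or more, with 3 higher and 2 lower. *ANXA13*, an annexin best known from intestinal epithelium, had 3.11 and 4.29 FPKM and was the only one past 1.2-fold (log2 fold change 0.36). *ANXA4* had 33.4 and 39.9 FPKM (0.25) and *ANXA7* 64.6 and 70.6 FPKM (0.13). *ANXA11* had 122 and 121 FPKM. *ANXA6*, an annexin with a doubled core that is tied to endocytosis and cholesterol transport, was the fourth most abundant of the family and had a lower value in pLVX-*RBP4* cells, 269 FPKM against 296 FPKM (-0.14). *ANXA9* stayed below 1 FPKM, with 0.365 and 0.443 FPKM. With the members included, 6 of 8 annexins that averaged 1 FPKM or more were higher, with a median log2 fold change of 0.18. The 3 annexin members are among the 6, and they were chosen with the increase of *ANXA1* known, so nothing is read from this count. The share of genes that were higher was 50.2% of the 12382 and 67.1% of the 1092 abundant ones. Under the other scalings the annexin count was 5 to 7, and the share of all genes that were higher lay between 30.1% and 64.9%.

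Receptors and binding partners were mixed. Of 22 genes looked for, 14 were found and 11 averaged 1 FPKM or more, with 7 higher and 4 lower as deposited and a median log2 fold change of 0.036. After scaling to a common sum without the gene of the highest FPKM, 5 were higher and 6 lower. As deposited, 3 of the 11 were at least 1.2-fold higher, against 11.0% of the 12382 genes, and 2 of them encode partners of S100A6. *CACYBP* had 16.0 and 24.6 FPKM (0.59), and *SUGT1*, a co-chaperone, had 23.1 and 33.1 FPKM (0.50). The name of *SUGT1* came from the study's supplementary tables, which include its list of changed genes. That *SUGT1* was found by symbol may therefore depend on its change, so nothing is read from this count. The other of the 3 was *NFKB1*, a transcription factor downstream of RAGE and TLR4, with 142 and 176 FPKM (0.30). *RELA* of the same list was lower, with 58.3 and 54.9 FPKM (-0.086). After scaling to a common sum without the gene of the highest FPKM, 2 of the 11 were at least 1.2-fold higher and 1 was at least 1.2-fold lower. *MYH9*, the non-muscle myosin bound by S100A4, was the most abundant of the list and lower in pLVX-*RBP4* cells, with 738 and 629 FPKM (-0.23). The receptors named for extracellular S100 proteins were weak in both groups. *AGER*, which encodes RAGE, had 0.174 and 0.153 FPKM, and *TLR4* had 0.941 and 0.569 FPKM. *PLAT*, the tissue plasminogen activator that binds the pair of ANXA2 and S100A10, had 176 and 203 FPKM (0.20).

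Genes around *ANXA1* were looked at as a list of glucocorticoid and phospholipase genes. Of 8 genes, 7 were found and 6 averaged 1 FPKM or more, of which 4 were higher and 2 lower, with a median log2 fold change of 0.040. That median was below 0 after scaling to the abundant genes and after scaling to the sum without the gene of the highest FPKM. *DUSP1*, a glucocorticoid-induced phosphatase, was the most abundant, with 130 and 134 FPKM (0.051). The only gene past 1.2-fold was *PTGS2*, the inducible cyclooxygenase, with 4.83 FPKM in CTRL cells and 3.47 FPKM in pLVX-*RBP4* cells (-0.38). The glucocorticoid receptor gene *NR3C1* had 21.1 and 21.6 FPKM, and *PLA2G4A*, the phospholipase that ANXA1 inhibits, 11.7 and 12.7 FPKM.

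EF-hand proteins outside the S100 family were compared as other calcium binders. Of 28 genes, 24 were found and 20 averaged 1 FPKM or more. Of these, 17 were higher as deposited, with a median log2 fold change of 0.075, but 7 of 20 after scaling to a common sum without the gene of the highest FPKM. Of all 12382 genes, 50.2% were higher as deposited and 30.1% after that scaling. As deposited, 3 of the 20 were at least 1.2-fold higher, against 11.0% of the 12382 genes. They were *NUCB2*, the precursor of nesfatin, with 170 and 258 FPKM (0.59), *CHP1* with 23.7 and 30.1 FPKM (0.33) and the calmodulin gene *CALM2* with 370 and 465 FPKM (0.33). The name of *NUCB2* came from the study's supplementary tables, which include its list of changed genes, so that it was found may depend on its change. *HPCAL1* was at least 1.2-fold lower, with 4.45 and 3.38 FPKM (-0.32). After scaling to a common sum without the gene of the highest FPKM, 1 of the 20 was at least 1.2-fold higher, against 5.12% of all genes. The most abundant, *SPARC*, had 1683 and 1802 FPKM. Calcium-dependent membrane repair proteins were a further list. All 5 that averaged 1 FPKM or more, of 6 found among 9, were lower in pLVX-*RBP4* cells, with a median log2 fold change of -0.13. They were also lower under each of the other scalings, over which the share of all genes that were higher ran from 30.1% to 64.9%. The most abundant, the calpain gene *CAPN2*, had 93.4 and 87.0 FPKM (-0.10), and *TRIM72*, the only one past 1.2-fold, 2.45 and 1.62 FPKM (-0.40).

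**Figure D3:**
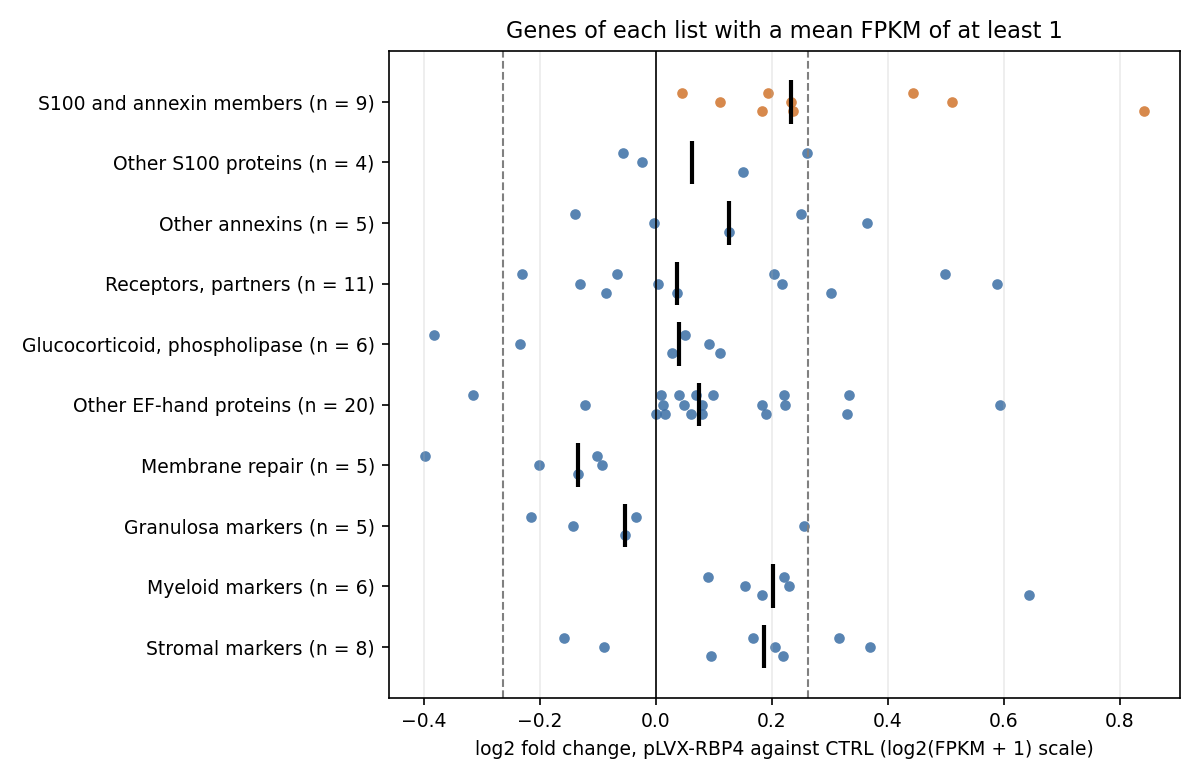
Log2 fold change on the log2(FPKM + 1) scale (x axis) of each gene that averaged 1 FPKM or more in 10 lists (y axis, n = genes drawn). Each point is 1 gene, the black bars are medians, and dashed lines mark 1.2-fold. The members have a median of 0.23, the myeloid markers 0.20, the stromal markers 0.19 and the membrane repair genes -0.13.

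The identity of the cells was checked against marker genes. All 5 granulosa markers found of 10 averaged 1 FPKM or more, with *GATA4* the most abundant at 59.2 and 57.8 FPKM and *FSHR* at 9.99 and 8.47 FPKM. As deposited 4 of the 5 were lower in pLVX-*RBP4* cells, among them *FSHR* (log2 fold change -0.21) and *NR5A1* (-0.14), and *FST* was higher (0.26). After rescaling to a common sum of all genes 3 were higher and 2 lower. Their summed level was 149 FPKM in CTRL cells and 147 FPKM in pLVX-*RBP4* cells. Of 4 theca markers, 2 were found by symbol, while *CYP17A1* and *STAR* were not. Both found were below 1 FPKM, *LHCGR* with 0.209 and 0.0937 FPKM and *INSL3* listed at 0 in CTRL cells and with 0.292 FPKM in pLVX-*RBP4* cells. *LHCGR*, the luteinizing hormone receptor, is not particular to theca cells, since the study cites its expression in GCs. The presence of theca cells was not tested. Among stromal markers the most abundant was *VIM*, which cultured GCs also express, with 3058 and 3435 FPKM. Of the 8 found, 6 were higher, against 50.2% of the 12382 genes, and the summed level of the 8 had a ratio of 1.12 between the groups. *VIM*, itself with a ratio of 1.12, gave 3058 of the 4496 FPKM of this sum in CTRL cells, so the sum mostly restates *VIM*. Past 1.2-fold, against 11.0% of the 12382 genes, were the matrix proteoglycan genes *DCN*, with 168.6 and 210.1 FPKM (0.32), and *LUM*, with 6.82 and 9.10 FPKM (0.37). *PDGFRA*, with 12.6 and 11.2 FPKM (-0.16), and *PDGFRB*, with 19.7 and 18.5 FPKM (-0.089), were lower. After scaling to a common sum without the gene of the highest FPKM, no stromal marker was at least 1.2-fold higher and 1 was at least 1.2-fold lower. The endothelial marker *PECAM1* had 16.3 and 16.0 FPKM and the epithelial marker *KRT8* 13.0 and 13.2 FPKM. The part of stromal or other cells in the levels of *ANXA2*, *S100A4* and *S100A6* was not tested.

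The smallest differences among the members depended on how the groups were scaled. A single gene without a symbol, ENSSSCG00000025162, held 35.4% of the summed FPKM in CTRL cells and 25.8% in pLVX-*RBP4* cells. When the groups were scaled to a common sum without this gene, the median log2 fold change of the 12382 genes moved to -0.10, and 7 of the 9 members stayed above 0. *S100A10* was then at -0.0085 and *ANXA5* at -0.075. *S100A12* was at 0.72, *S100A8* at 0.40 and *ANXA1* at 0.32, still past 1.2-fold. Scaling to the median of the abundant genes put *ANXA5* at -0.040 and left the other 8 members above 0. Rescaling to a common sum of all genes instead put 6 of the 9 members past 1.2-fold, with *ANXA2*, *S100A4* and *S100A6* added.

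**Figure D4:**
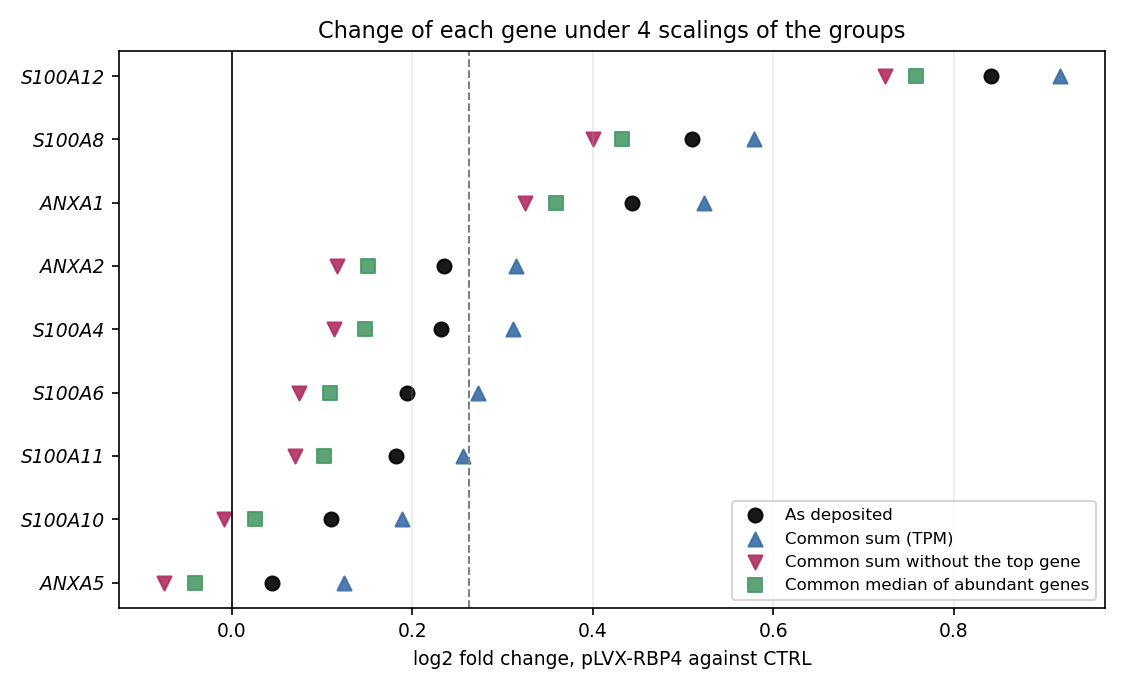
Log2 fold change (x axis) of the 9 members (y axis) as deposited (black circles), after rescaling to a common sum of all genes (blue triangles), after scaling to a common sum without the gene of the highest FPKM (red triangles) and after scaling to the median of genes that averaged 100 FPKM or more (green squares). The dashed line marks 1.2-fold. *S100A12*, *S100A8* and *ANXA1* lie to the right of it in all 4, and *ANXA5* lies on both sides of 0.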

How the data were processed

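The authors prepared libraries with the NEBNext Ultra RNA kit, aligned paired-end reads to Sscrofa10.2 with TopHat2 and computed expression with Cuffdiff of Cufflinks (versions and annotation release not given in the sources used here). The authors deposited FPKM, a single table with 1 value for each gene in each group. Both value columns were used and 0 were left out.

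Log2 fold changes were computed as differences of log2(FPKM + 1) for all genes, and counts used the 12382 genes that averaged 1 FPKM or more and a limit of 1.2-fold. Had values per library been used, a linear model was planned. With 1 value per group no p-value or error was computed. Whole reads could not be recovered from FPKM without transcript lengths. The calculation was checked on made-up values of known fold.

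Symbols for 10757 genes, 8 of the 9 members among them, came from a table of Ensembl gene names, or from the names in the study's supplementary tables (*S100A12*, *SUGT1* and *NUCB2* among others). Those supplementary tables include the study's list of changed genes, so a gene named only there may have been found because it changed. Gene order came from RefSeq (Sscrofa11.1). The members and lists were chosen with earlier results of these data known. All members and all S100 and annexin genes found are named, and, from the other lists of genes, the most abundant gene and those past 1.2-fold. Of each marker list, the most abundant gene is named, except for 1 list that is not reported here. Other genes, such as *PTPRC*, *TYROBP*, *DCN*, *AGER*, *PLAT* or *NR3C1*, were picked after their values were seen.

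Of 11 alternatives, 8 were planned and 3 were added after seeing the data (no pseudocount and both scalings to abundant genes or without the top gene). The planned ones were pseudocounts of 0.1 and 0.01, no filter, a mean FPKM of at least 5, a common median, upper quartile or sum (TPM), and summing gene IDs of the same symbol. A log2 value counted as moved from 0.1 on and a count from 1.5 times on. Python 3.11.15, numpy 2.4.6, pandas 2.3.3 and matplotlib 3.10.9 were used.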

Additional observations from a re-analysis of the deposited data

How the results depend on the processing

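The direction of *S100A4*, *S100A6*, *S100A8*, *S100A11*, *S100A12*, *ANXA1* and *ANXA2* was the same in all 11 alternatives. Only the 5 scalings among them could reverse a direction. Other pseudocounts, other filters and summing of gene IDs leave the sign of a member as it is. The count of members higher in pLVX-*RBP4* cells was 9 as deposited and 7 to 9 over the alternatives, and no member was at least 1.2-fold lower in any of them. The count at least 1.2-fold higher was 3, except for 6 after rescaling to a common sum (TPM). The median log2 fold change of the members ranged from 0.11, after scaling to a common sum without the gene of the highest FPKM, to 0.31, after rescaling to a common sum. Without that gene *S100A10* (-0.0085) and *ANXA5* (-0.075) reversed, and with scaling to the median of genes that averaged 100 FPKM or more *ANXA5* did (-0.040). These follow from the scale factors, whose log2 values were -0.12 and -0.085. With 1 value per group, leaving out replicates was not run. No paired analysis was possible because the table carries no replicate numbers.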
